A study of Mus musculus with 3 samples.

Results

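The receptors through which liver macrophages read CSF1, GM-CSF, IL-6, IL-10, interferons and TGF-beta are described here as a set of 10 genes: Csf1r, Csf2ra, Csf2rb, Il6ra, Il6st, Il10ra, Ifngr1, Ifnar1, Tgfbr1 and Tgfbr2. They were chosen by name, and each symbol matched 1 gene, so the set is 10 of the 28692 genes counted. The data are single-cell RNA counts from the livers of 3 male mice aged 8 weeks, 1 per group. The first mouse ate normal chow (day 0). The other mice were fed a Lieber-DeCarli liquid diet, which held 5% ethanol, the one for 3 days and the other for 10 days. The control ate chow and not an ethanol-free liquid diet, so ethanol and the form of the food varied together, and no group had a second mouse. Collagenase perfusion freed the non-parenchymal cells (the liver's cells other than hepatocytes), and a sort took the viable ones that were F4/80-high and CD11b-intermediate. The library kit was 10x Genomics 3', version 2.

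Kupffer cells are macrophages that live in the sinusoids, the capillaries of the liver. CSF1R is the receptor tyrosine kinase for CSF1 and IL-34 on which macrophages depend for survival, and its RNA is a usual mark of the lineage. The other 9 genes encode ligand-binding or signalling chains: GM-CSF, IL-6, IL-10 and the interferons signal through paired chains that activate JAK kinases and STAT factors, while TGF-beta binds TGFBR2, which then activates the kinase TGFBR1 and SMAD factors.

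For the IL-6 pair and the GM-CSF receptor alpha chain, the 100 bases before the RefSeq start are shown, because these genes had different distributions over cell classes: Csf2ra and Il6ra were highest in myeloid classes and Il6st in endothelial cells. Sequences are from RefSeq on GRCm38.p6, written 5′ to 3′ on the strand of the gene, and capitals mark GAGGAA or its complement TTCCTC, a core of the kind that the myeloid factor PU.1 recognises. The windows are chr19:61228419-61228518 (minus strand) for Csf2ra, chr3:89913197-89913296 (minus strand) for Il6ra and chr13:112463970-112464069 (plus strand) for Il6st.
Csf2ra: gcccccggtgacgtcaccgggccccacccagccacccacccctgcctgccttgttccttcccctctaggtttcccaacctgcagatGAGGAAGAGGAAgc
Il6ra: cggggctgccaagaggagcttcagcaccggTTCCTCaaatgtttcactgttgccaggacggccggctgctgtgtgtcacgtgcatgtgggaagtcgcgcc
Il6st: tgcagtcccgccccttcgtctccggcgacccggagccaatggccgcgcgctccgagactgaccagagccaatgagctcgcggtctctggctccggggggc
For Csf2ra the GENCODE gene model starts a few bases upstream of the RefSeq start, inside this window, so its match nearest the start lies within that model and the other partly so. The Csf2ra stretch holds 2 matches that lie side by side without overlapping, the Il6ra stretch holds 1 on the other strand, and the Il6st stretch holds 0. Over the longer window of 300 bases (250 before and 50 after the start), 8 promoters of 7 of the 10 receptors were matched by symbol. The hexamer was present, on either strand, in 5 of these 8 (those of Csf2ra, Il6ra, Ifnar1, Tgfbr1 and Tgfbr2) and in 28.3% of all 32851 promoters. It is a short and common string, and a match is a description of the letters and not evidence of binding.

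The libraries held 21650747, 21471782 and 16538895 UMIs (unique molecular identifiers, 1 per captured RNA molecule) in chow, at 3 days and at 10 days. After the filters on UMIs, genes, mitochondrial share and doublets, 2656, 3899 and 2893 cells remained. Clustering was done without the 10 receptors. It gave 2292, 3448 and 2522 Kupffer-like cells, 69, 58 and 51 conventional dendritic-like cells, 40, 105 and 65 endothelial-like cells, and 137, 99 and 165 lymphoid-like cells. All 25 Kupffer markers were detected in the Kupffer-like cells of every library, with a summed level of 45964, 46631 and 47413 CPM (UMIs of a gene per 1e6 UMIs of that class in that library). The same markers, Adgre1 among them, were used to name the class. All 25 were also detected in the dendritic-like cells of every library, so detection alone does not set the class apart. Adgre1, which encodes F4/80, stood at 889, 805 and 877 CPM and Itgam, which encodes CD11b, at 27.9, 14.7 and 31.6 CPM. The dendritic-like cluster carried 3 dendritic and 3 monocyte markers among its 10 leading genes (Cd209a, Xcr1 and Cd24a, and S100a4, Ccr2 and Cx3cr1). The libraries shared 13 to 20 cell barcodes per pair, against 10.4 to 15.3 for independent draws. Kupffer-like cells were deepest in chow, with medians of 4481, 2982 and 3007 UMIs.

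**Figure D1:**
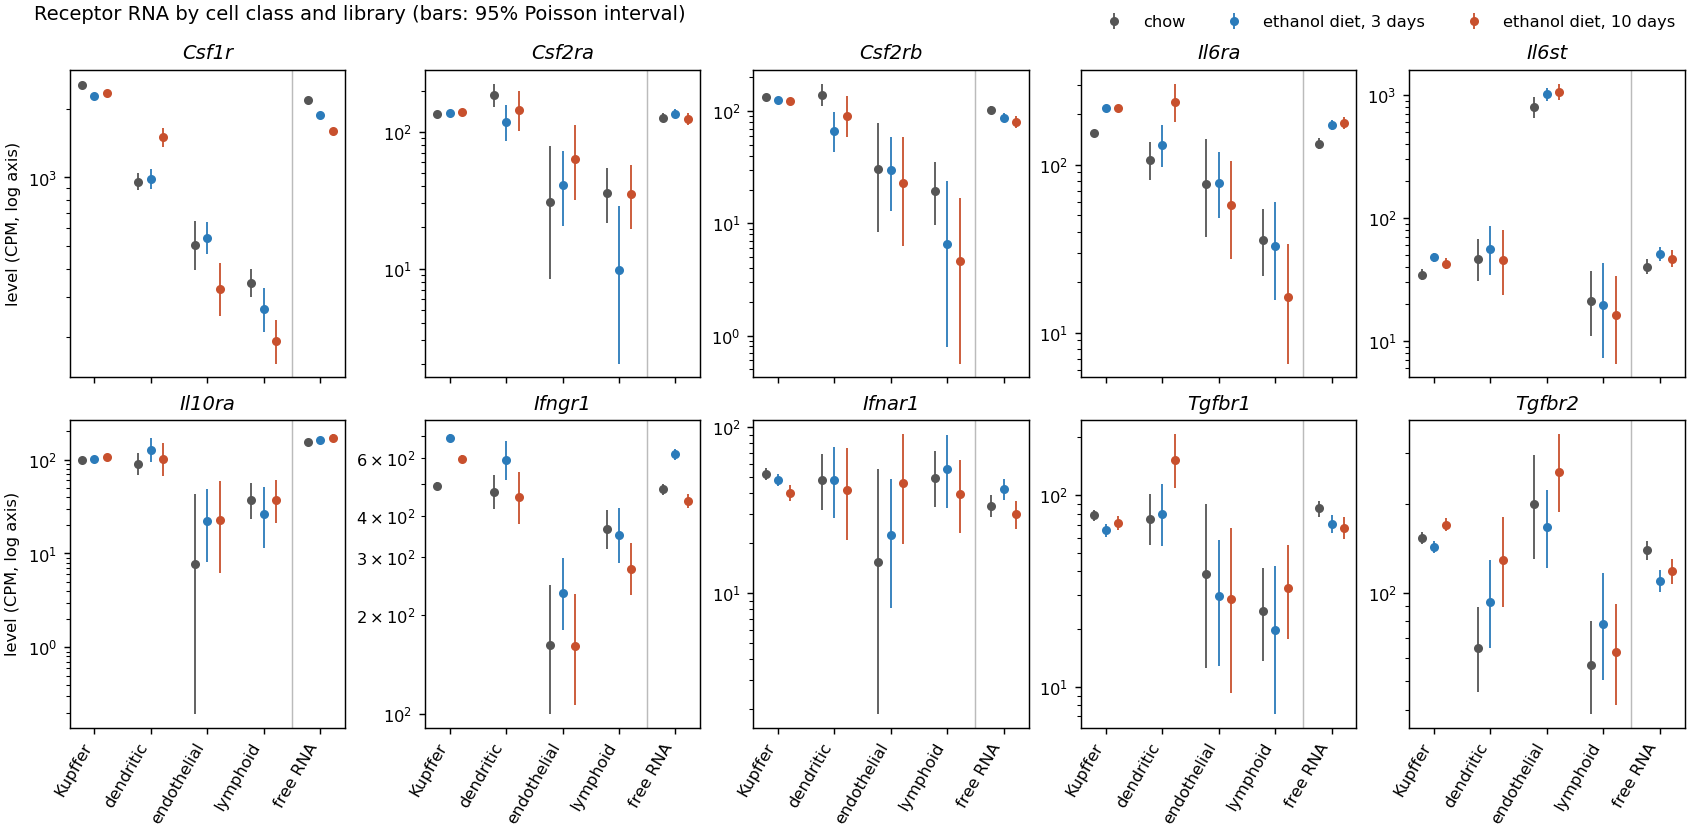
Level of each of the 10 receptors (CPM, log axis) in 4 cell classes and in free RNA (barcodes with 1 to 100 UMIs), with 1 point per library and bars for the exact 95% Poisson interval. Csf1r sits highest in Kupffer-like cells in all 3 libraries, Il6st in endothelial-like cells, and Ifnar1 has overlapping intervals in Kupffer-like, dendritic-like and lymphoid-like cells.

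By class, 6 of the 10 receptors were at least 2 times higher in Kupffer-like than in lymphoid-like cells in each of the 3 libraries: Csf1r, Csf2ra, Csf2rb, Il6ra, Il10ra and Tgfbr1. Of all 7512 genes with a mean of at least 10 CPM in Kupffer-like cells, 18.9% met the same rule, and 0 of the 10 were lower by it, against 5.02%. Against endothelial-like cells, 7 of the 10 were at least 2 times higher in each library (those 6 and Ifngr1, against 6.56% of all genes), and 1 was lower by the same rule (Il6st, against 5.34%). Against the dendritic-like cells 0 of the 10 were at least 2 times higher in every library (2.92% of all genes) and 0 were lower (1.49%). For the shares of all genes, UMI counts below 3 were set to 3. Genes low in Kupffer-like cells therefore could not pass as higher, most of all against the small endothelial-like class. These shares are thus partly set by depth, and the receptor counts are not read against them. The counts are descriptions, since a class made by clustering is not tested against another.

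RNA of Kupffer marker genes was present in every other class. In T and NK-like cells (117, 90 and 153 cells) the median Kupffer marker stood at 6.75%, 7.14% and 6.96% of its Kupffer-like level, with 1, 2 and 0 of the 25 markers at 0 and a summed level of 7.32%, 6.96% and 6.79%. Csf1r stood at 9.12%, 8.15% and 8.35% of its Kupffer-like level there, close to those markers. The B and plasma-like cells were few (20, 9 and 12) and carried more, at 37.1%, 45.0% and 7.34% for the median marker. In endothelial-like cells the median Kupffer marker stood at 21.9%, 23.3% and 19.4% and Csf1r at 20.1%, 23.9% and 14.0%. Whether a receptor level near the marker median is background or expression was not tested.

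**Figure D2:**
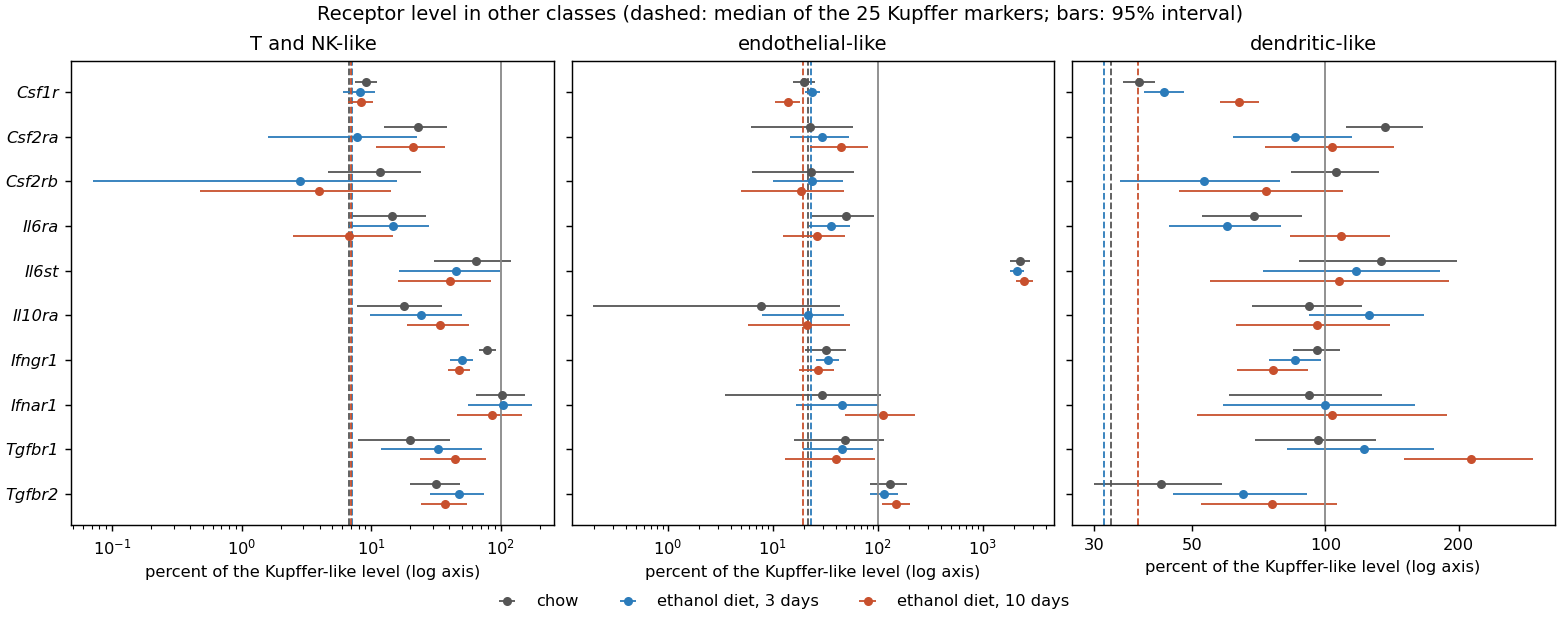
Level of each receptor in T and NK-like, endothelial-like and dendritic-like cells as a percent of its Kupffer-like level in the same library (log axes with different ranges), with 95% intervals for counting error. Dashed lines mark the median of the 25 Kupffer markers, 6.75% to 7.14% in T and NK-like cells; Csf1r lies close to them there, whereas Ifnar1 and Ifngr1 lie far to the right.

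Csf1r (chromosome 18, 61100598 to 61132149, plus strand, GRCm38) had 2528, 2278 and 2344 CPM in Kupffer-like cells, from 27579, 25737 and 19310 UMIs. The chow library was the highest of the 3. Under the main settings the libraries fed ethanol stood below it by about as much as each other. The ratio was 0.901 at 3 days over chow (95% interval 0.886 to 0.916) and 0.927 at 10 days over chow (0.910 to 0.944). These intervals cover counting error only, and all comparisons with chow share the same chow library. With a mitochondrial limit of 5% the 10-day ratio to chow was 0.969. With TMM scaling the ratios to chow were 0.878 at 3 days and 0.888 at 10 days. In all 6 Kupffer-like clusters Csf1r was below its chow level, with ratios of 0.864 to 0.914 at 3 days and 0.808 to 0.960 at 10 days. Here and below, clusters are parts of the same libraries and are not replicates. Between 10 and 3 days the ratio was 1.03 (1.01 to 1.05), above 1 in 5 of the 6 clusters.

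Nearly every Kupffer-like cell had a Csf1r UMI. After each cell was thinned to 1000 UMIs the share was 90.7%, 89.4% and 89.6% (unthinned 99.2%, 98.4% and 98.2%). In lymphoid-like cells, which should lack the receptor, it was 20.4%, 21.2% and 18.8% (unthinned 54.0%, 44.4% and 40.0%, at median depths of 3538, 2605 and 2418 UMIs). The proliferating cluster, marked by Mki67, held 52, 69 and 61 cells and had 0.715, 0.694 and 0.623 of the Csf1r level of all Kupffer-like cells. The other 5 clusters lay between 0.948 and 1.09 of it. Csf1r overlaps Hmgxb3 on the opposite strand, and whether the counting used strand is not given in the sources used here.

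In dendritic-like cells Csf1r had 960, 984 and 1497 CPM, from 560, 369 and 394 UMIs. The 10-day value was the highest, at 1.56 times chow (1.37 to 1.78), and stood at 63.9% of the Kupffer-like level. The 25 Kupffer markers moved with it: their summed level in these cells was 32.7%, 38.9% and 47.6% of that in Kupffer-like cells. Their part in the Csf1r difference was not tested. Endothelial-like cells had 508, 545 and 327 CPM, from 66, 147 and 57 UMIs, lowest at 10 days (0.644 times chow, 0.444 to 0.932), while the summed Kupffer markers there were at 26.6%, 27.4% and 21.9%. Lymphoid-like cells had 347, 266 and 193 CPM, with summed Kupffer markers at 13.5%, 10.6% and 6.88%.

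The genes whose levels over the 12 sums of library and class were most like those of Csf1r were Creg1, encoding a secreted glycoprotein (r = 0.994), and Lrp1, an endocytic receptor (r = 0.992). Points of these correlations share libraries and depth, so they are given as a description, with no test.

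The CSF1R network was described from lists of its signalling partners and transcription factors. Beside the counts of this and the other lists stand the shares of all 7512 measured genes past 1.5-fold over chow, which were 3.37% higher and 1.34% lower at 3 days and 4.02% higher and 2.64% lower at 10 days. Of 17 measured genes for signalling and turnover, 0 were past 1.5-fold at 3 days over chow. At 10 days over chow 2 were higher and 1 lower. The kinase Fyn had 38.9, 57.6 and 71.3 CPM (1.83 at 10 days), Rin2 had 114, 120 and 178 CPM (1.57), and Tyrobp, the DAP12 adaptor of macrophages, had 3513, 2806 and 2165 CPM (0.616, interval 0.605 to 0.627). Tyrobp was ordered chow, 3 days, 10 days.

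Among 11 measured transcription factors tied to Csf1r, Spi1, which encodes PU.1, had 629, 629 and 642 CPM (1.00 and 1.02 times chow). Cebpb, an inflammatory and myeloid factor, had 319, 492 and 819 CPM, a ratio of 1.54 (1.48 to 1.61) at 3 days and 2.57 (2.46 to 2.67) at 10 days. Fos had 163, 321 and 190 CPM (1.97 at 3 days) and Ets2 38.1, 44.8 and 59.8 CPM (1.57 at 10 days). The lowest of the list were Irf8 at 3 days (0.95) and Cebpa at 10 days (0.961). The list thus had 2 members past 1.5-fold upward and 0 downward at each time over chow, against 3.37% and 1.34% of all measured genes at 3 days and 4.02% and 2.64% at 10 days. The CSF1R ligands Csf1 and Il34 were at or below 1.5 CPM in Kupffer-like cells.

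The GM-CSF receptor stood at nearly the same level in the 3 libraries. Csf2ra, the ligand-binding alpha chain (chromosome 19, 61223957 to 61228429, minus strand), had 135, 138 and 139 CPM, a ratio of 1.02 (0.945 to 1.09) at 3 days and 1.03 (0.952 to 1.11) at 10 days over chow. Csf2rb, the beta chain shared with the IL-3 and IL-5 receptors (chromosome 15, 78325752 to 78353847, plus strand), had 133, 126 and 124 CPM, a ratio of 0.943 (0.876 to 1.02) and 0.935 (0.863 to 1.01). All 4 intervals held 1. The dendritic-like cells had 185, 117 and 144 CPM of Csf2ra, or 137%, 85.3% and 104% of the Kupffer-like level, and 141, 66.7 and 91.2 CPM of Csf2rb. At 3 days the dendritic-like ratios were 0.634 (0.436 to 0.908) and 0.475 (0.290 to 0.750), from 44 and 25 UMIs in 58 cells.

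Lymphoid-like cells were low for both chains, with 35.5, 9.84 and 34.9 CPM of Csf2ra and 19.5, 6.56 and 4.66 CPM of Csf2rb. The thinned share of cells with a Csf2ra UMI was 12.1%, 12.2% and 13.8% in Kupffer-like cells and 2.19%, 1.01% and 4.24% in lymphoid-like cells (unthinned 43.9%, 33.8% and 36.0% against 12.4%, 3.03% and 9.09%). For Csf2rb it was 12%, 11.6% and 11.0% against 2.19%, 1.01% and 0.606% (unthinned 41.5%, 32.0% and 31.2% against 8.03%, 2.02% and 1.21%). In endothelial-like cells of chow 4 Csf2ra UMIs were counted, and 10% of the 40 cells had one before thinning. After thinning 0 of 40 had one, which at 1000 UMIs per cell allows up to 7.50% of cells with a UMI. Csf2ra and Csf2rb were thus above the lymphoid-like level in Kupffer-like cells of all 3 libraries.

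Csf2rb2, the mouse paralog of Csf2rb used by the IL-3 receptor, had 35.0, 24.9 and 24.8 CPM in Kupffer-like cells, a ratio of 0.710 (0.607 to 0.831) and 0.707 (0.594 to 0.840). In the last 500 bases of Csf2rb transcripts, where a 3' library reads, 4.96% of 98-base windows occurred exactly in Csf2rb2, so a small part of the reads could be shared between them. Il3ra, which pairs with the beta chain, had 20.7, 22.3 and 35.3 CPM and was 1.70 times chow at 10 days (1.43 to 2.04). The closest patterns were those of Plcg2 (r = 0.956) and Clec4a3 (0.952) for Csf2ra, and of Spi1 (0.983) and Clec4n (0.980) for Csf2rb. Csf2, the gene for GM-CSF, had 1 UMI in Kupffer-like cells of chow and 0 in the other libraries.

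The IL-6 receptor pair was higher in both libraries fed ethanol. Il6ra, the ligand-binding chain (chromosome 3, 89864059 to 89913196, minus strand), had 154, 218 and 217 CPM in Kupffer-like cells. The libraries fed ethanol stood together above chow. The ratio to chow was 1.41 at 3 days (1.33 to 1.5) and 1.41 at 10 days (1.31 to 1.5), and between them it was 0.994 (0.935 to 1.06). Per cluster the ratio ran from 1.01 to 1.56 at 3 days, above 1 in 6 of 6, and from 0.975 to 1.52 at 10 days, above 1 in 5 of 6. Cluster 0 had 1.66 times the level of all Kupffer-like cells in chow, 1.18 times at 3 days and 1.15 times at 10 days, and it held 16.4% of Kupffer-like cells in chow, 31.1% at 3 days and 34.7% at 10 days. With each cluster given equal weight the ratios were 1.29 and 1.17.

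The thinned share of Kupffer-like cells with an Il6ra UMI was 15.7%, 21.3% and 19.3% (unthinned 50.5%, 49.0% and 47.4%), against 2.19%, 3.03% and 3.03% of lymphoid-like cells (unthinned 9.49%, 9.09% and 4.24%). The unthinned shares are highest in the deeper chow library, in the opposite order to the CPM. Dendritic-like cells had 106, 131 and 236 CPM of Il6ra, 2.22 times chow at 10 days (1.53 to 3.21), beside the Kupffer marker levels given for Csf1r. Il6ra overlaps an antisense transcript, Gm42809. Its closest patterns were those of Clec12a (r = 0.986) and the complement receptor C5ar1 (0.980).

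Il6st encodes gp130, the signalling chain shared by the IL-6 family (chromosome 13, 112464070 to 112510086, plus strand). In Kupffer-like cells it had 34.6, 47.7 and 42.5 CPM, a ratio of 1.38 (1.21 to 1.58) at 3 days and 1.23 (1.06 to 1.43) at 10 days over chow. Its level in endothelial-like cells was 793, 1013 and 1062 CPM, which is 22.9, 21.2 and 25 times the Kupffer-like level. After thinning, 57.5%, 66.7% and 64.6% of endothelial-like cells had an Il6st UMI, against 3.36%, 5.22% and 4.56% of Kupffer-like cells (unthinned 87.5%, 83.8% and 83.1% against 15.2%, 14.5% and 12.5%). Lymphoid-like cells had shares of 1.46%, 3.03% and 0.606% (unthinned 8.76%, 5.05% and 4.24%). The receptor's binding chain and its signalling chain were thus highest in different classes. In endothelial-like cells the ratios over chow were 1.28 (1.01 to 1.62) and 1.34 (1.05 to 1.72).

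Endothelial RNA in the Kupffer-like sums was measured beside it. The median of 20 endothelial markers in Kupffer-like cells was 0.524%, 0.464% and 0.477% of its endothelial-like level, while Il6st stood at 4.36%, 4.71% and 4.0%. The summed markers stood at 3.27%, 4.04% and 3.95%, a sum in which Cdh5 alone gave 637, 679 and 813 of 1029, 1050 and 1240 CPM. With the clusters at equal weight the Il6st ratios were 1.17 and 1.04, and across clusters it was above 1 in 5 of 6 at 3 days and in 3 of 6 at 10 days. The part of endothelial RNA in the Kupffer-like differences was not tested. The 2 genes most like Il6st over classes were the endothelial genes Nr2f2 (r = 0.992) and Flt4 (0.988).

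Other IL-6 genes were listed beside the pair. Il6 itself had 8.25, 13.7 and 19.2 CPM in Kupffer-like cells, from low counts, a ratio of 1.66 (1.27 to 2.18) at 3 days and 2.32 (1.78 to 3.05) at 10 days. Lifr, a chain that pairs with gp130 for LIF, had 9.53, 15.9 and 15.4 CPM (1.67 and 1.62 times chow). Il11ra1 had 37.3, 35.8 and 34.6 CPM. Of 8 measured STAT3 target genes of IL-6 and IL-10, 1 was past 1.5-fold higher and 1 lower at 3 days (3.37% and 1.34% of all measured genes). At 10 days 2 were higher and 0 lower (4.02% and 2.64%). The repressor Bcl6 had 10.3, 17.0 and 17.0 CPM (1.66 and 1.65), Junb 236, 344 and 364 CPM (1.54 at 10 days) and Fgl2, a secreted fibrinogen-like protein, 140, 85.2 and 103 CPM (0.608 at 3 days, 0.732 at 10 days). The median log2 ratio of this list was 0.24 at 3 days and 0.31 at 10 days, against 0.04 and 0.08 over all genes. Socs3, the usual feedback gene of this pathway, was between 2.48 and 3.28 CPM, below the measured minimum.

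The IL-10 receptor was close to level across libraries. Il10ra, the ligand-binding chain (chromosome 9, 45253837 to 45269149, minus strand), had 99, 102 and 107 CPM in Kupffer-like cells, a ratio of 1.03 (0.949 to 1.12) at 3 days and 1.08 (0.990 to 1.19) at 10 days. Dendritic-like cells had 90.8, 128 and 103 CPM, and T and NK-like cells 17.7, 25 and 36.7 CPM, or 17.9%, 24.5% and 34.2% of the Kupffer-like level. Free-RNA barcodes had more of it than any Kupffer-like sum, at 155, 162 and 171 CPM. The thinned share was 9.77%, 10.2% and 10.1% in Kupffer-like cells (unthinned 36.2%, 27.4% and 27.9%) and 5.11%, 1.01% and 4.85% in lymphoid-like cells (12.4%, 8.08% and 8.48%), which are also known to use this receptor.

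Il10rb, the partner chain, had 254, 240 and 300 CPM, a ratio of 0.944 (0.895 to 0.996) at 3 days and 1.18 (1.12 to 1.2) at 10 days over chow. The ligand Il10 had 4.03, 9.29 and 5.22 CPM, below the measured minimum of 10 CPM. Il10ra followed most closely Inpp5d (r = 0.971), a lipid phosphatase of blood cells, and Flna (0.965). Il10ra overlaps the pseudogene Gm20612 on the other strand.

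Of the interferon receptors, the interferon gamma chain was above chow in both libraries fed ethanol, and the type I chain was below chow past counting error at 10 days. Ifngr1 (chromosome 10, 19591949 to 19610229, plus strand) had 496, 694 and 598 CPM in Kupffer-like cells. The 3-day library was the highest and chow the lowest. The ratio to chow was 1.40 (1.35 to 1.45) at 3 days and 1.21 (1.16 to 1.3) at 10 days. The 10-day level was 0.862 times the 3-day level (0.832 to 0.894). In the 6 clusters the 3-day ratio ran from 1.17 to 1.52, and the 10-day over 3-day ratio from 0.641 to 0.897. At 10 days over chow it was above 1 in 4 of 6 clusters (0.977 to 1.3). With each cluster given equal weight the ratios to chow were 1.35 and 1.09. The thinned share of cells was 41.1%, 49.3% and 45.7% in Kupffer-like cells and 24.8%, 26.3% and 22.4% in lymphoid-like cells (unthinned 84.5%, 85.0% and 81.4% against 60.6%, 56.6% and 43.0%).

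Lymphocytes carry this receptor too and are no blank for it. T and NK-like cells had 390, 346 and 286 CPM, or 78.8%, 49.9% and 47.9% of the Kupffer-like level. In all lymphoid-like cells the level was 365, 351 and 277 CPM, in the order chow, 3 days, 10 days, with a ratio of 0.759 (0.60 to 0.956) at 10 days over chow. Dendritic-like cells had 475, 592 and 456 CPM, with a ratio of 1.2 (1.04 to 1.49) at 3 days. Endothelial-like cells had 162, 234 and 161 CPM. The closest patterns were those of Ucp2 (r = 0.968) and Cyba (0.962), and the partner chain Ifngr2 had 135, 148 and 154 CPM in Kupffer-like cells (1.09 and 1.14 times chow).

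Target genes of interferon gamma were described from a list. Of 9 measured, 0 were higher and 3 lower past 1.5-fold at 3 days over chow (3.37% and 1.34% of all measured genes), and 0 higher and 4 lower at 10 days (4.02% and 2.64%). The median log2 ratio was −0.52 and −0.56, against 0.04 and 0.08 over all genes. Gbp2, an interferon-induced GTPase, had 57.7, 28.8 and 33.4 CPM (0.499 and 0.579), and Ciita, the regulator of MHC class II genes, 14.7, 7.97 and 8.50 CPM (0.543 and 0.579). The chemokine gene Cxcl9 had 42.7, 21.2 and 40.9 CPM (0.495 at 3 days, 0.957 at 10 days). Its level was uneven over clusters. In chow it was 974 CPM in cluster 1 (49 cells, 2.14% of Kupffer-like cells) and 177 CPM in cluster 5. In clusters 0, 2, 3 and 4 of chow it was 8.88 to 22.5 CPM. The highest of the list were Gbp5 at 3 days (0.965) and Irf1 at 10 days (1.12). Ifng in Kupffer-like cells was at or below 1.33 CPM.

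Ifnar1, a chain of the type I interferon receptor (chromosome 16, 91485238 to 91507441, plus strand), had 52.4, 48.2 and 40.3 CPM in Kupffer-like cells. Its order was chow, 3 days, 10 days, with ratios to chow of 0.920 (0.816 to 1.04) at 3 days and 0.770 (0.670 to 0.883) at 10 days, and of 0.837 (0.728 to 0.961) between the later libraries. With a mitochondrial limit of 5% the ratios to chow were 1.0 at 3 days and 0.893 at 10 days. In 6 of 6 clusters the level was below chow at both times, although the counts were small in the smallest ones (5 to 17 UMIs in clusters 1 and 5 outside the 3-day library). Levels in other classes were close to these: T and NK-like cells had 53.2, 50.0 and 34.3 CPM and dendritic-like cells 48.0, 48.0 and 41.8 CPM. The thinned share was 4.67%, 4.29% and 4.0% in Kupffer-like cells and 6.57%, 6.06% and 3.64% in lymphoid-like cells (unthinned 21.2%, 14.4% and 12.1% against 18.2%, 16.2% and 9.70%). Its closest patterns were those of Zbp1 (r = 0.918), a nucleic acid sensor, and Parvg (0.912).

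Ifnar2, the other chain, had 255, 234 and 241 CPM (0.919 and 0.946 times chow). Of 11 measured type I interferon target genes, 0 were past 1.5-fold at 3 days over chow (4.71% of all measured genes). At 10 days 0 were higher and 4 lower (4.02% and 2.64%). The median log2 ratio was 0.02 and then −0.50, against 0.04 and 0.08 over all genes. Isg15, a ubiquitin-like protein, had 73.9, 65.0 and 35.1 CPM (0.475 at 10 days), Irf7 471, 393 and 268 CPM (0.568) and Ifit3 72.1, 73.1 and 37.0 CPM (0.514). Usp18, which shuts off signalling at the receptor, was the highest of the list at 3 days with 21.6, 32.2 and 15.2 CPM (1.49), and Rsad2 the highest at 10 days (0.998). Ifnb1 and Ifna4 had 0 UMIs in Kupffer-like cells of all 3 libraries.

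Under the main settings, the TGF-beta receptor chains were within 5/4-fold of chow in both directions. Tgfbr1, the signalling kinase (chromosome 4, 47353222 to 47414931, plus strand), had 78.5, 65.3 and 71.3 CPM in Kupffer-like cells, a ratio of 0.832 (0.753 to 0.920) at 3 days and 0.908 (0.816 to 1.01) at 10 days. It was below chow in 6 of 6 clusters at 3 days and in 4 of 6 at 10 days. With cells thinned to 1000 UMIs the Tgfbr1 ratios to chow were 0.80 at 3 days and 0.724 at 10 days. With a mitochondrial limit of 5% they were 0.879 and 1.11. Tgfbr2, the ligand-binding kinase (chromosome 9, 116084293 to 116175360, minus strand), had 154, 143 and 171 CPM, a ratio of 0.934 (0.872 to 1.00) at 3 days and 1.11 (1.03 to 1.19) at 10 days. At 10 days over 3 days it was 1.19 (1.11 to 1.28), above 1 in 6 of 6 clusters (1.07 to 1.24). The order of the libraries thus differed between the chains.

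By class they differed as well. Tgfbr2 was at 200, 167 and 258 CPM in endothelial-like cells, at or above the Kupffer-like level, while Tgfbr1 was at 38.5, 29.7 and 28.7 CPM there, from 5 to 8 UMIs. In T and NK-like cells Tgfbr2 stood at 31.8%, 47.3% and 37.3% of the Kupffer-like level and Tgfbr1 at 19.8%, 32.8% and 44.7%, all above the marker median there. Dendritic-like cells had 75.4, 80.0 and 152 CPM of Tgfbr1 (2.02 at 10 days over chow, 1.28 to 3.17) and 65.1, 93.3 and 129 CPM of Tgfbr2 (1.98, 1.21 to 3.24). Summed Kupffer markers in these cells were 15020, 18139 and 22580 CPM and summed dendritic markers 10827, 13448 and 7916 CPM, and their part in these differences was not tested. These are 34 to 44 UMIs per library, except 30 for Tgfbr1 at 3 days. Thinned shares in Kupffer-like cells were 8.07%, 6.47% and 5.79% for Tgfbr1 and 15.2%, 13.9% and 15.9% for Tgfbr2, against 2.19%, 3.03%, 3.03% and 5.11%, 10.1%, 5.45% in lymphoid-like cells. The unthinned shares were 29.4%, 18.5% and 19.3% for Tgfbr1 and 50.4%, 36.6% and 40.9% for Tgfbr2 in Kupffer-like cells, and in lymphoid-like cells 10.2%, 5.05%, 7.27% and 20.4%, 19.2%, 13.3%.

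Tgfbr3, the co-receptor betaglycan, had 77.0, 108 and 109 CPM in endothelial-like cells and 0.733, 0.354 and 0.486 CPM in Kupffer-like cells. Summed markers of stellate cells in the endothelial-like class were 293, 1351 and 861 CPM, and their part in the Tgfbr3 level was not tested. The ligand Tgfb1 had 293, 247 and 234 CPM in Kupffer-like cells, ratios of 0.841 (0.799 to 0.885) and 0.799 (0.755 to 0.845). Of 6 measured SMAD transducers and 8 inhibitors or feedback genes, 0 were past 1.5-fold over chow at either time (4.71% and 6.66% of all measured genes). Their extremes were Tgfbrap1 (1.29) and Smad2 (0.934), and Ski (1.31) and Smad6 (0.843), at 3 days, and Smad1 (1.42), Smad5 (1.02), Nrros (1.35) and Smad6 (0.861) at 10 days. Of 6 measured TGF-beta target genes, Tgfbi, a matrix protein, was past 1.5-fold at both times, with 189, 327 and 284 CPM (1.73 and 1.5), and the lowest was Id1 (1.02 and 0.890). The closest patterns were those of Hps3 (r = 0.915) and Tifab (0.911) for Tgfbr1, and of Pea15a (0.967) and Kat2b (0.963) for Tgfbr2.

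**Figure D3:**
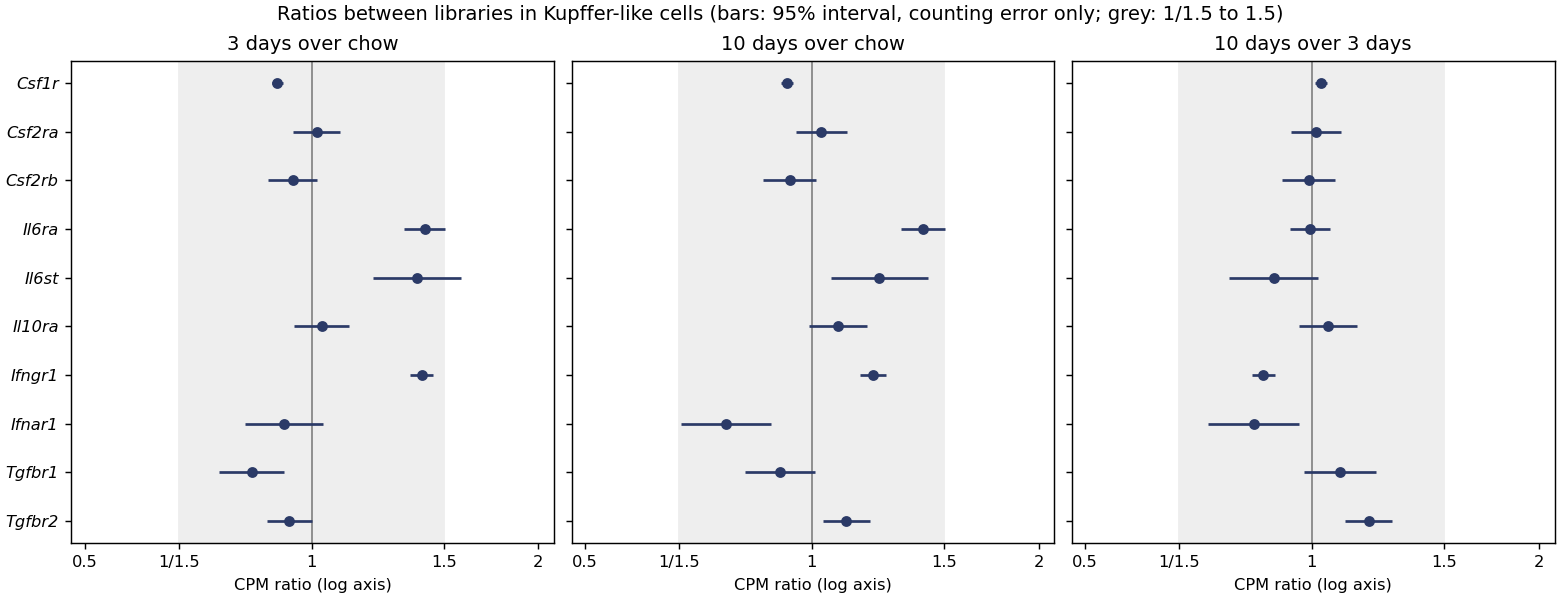
Ratio of CPM between libraries for each receptor in Kupffer-like cells (log axis), for 3 days over chow, 10 days over chow and 10 days over 3 days, with exact 95% intervals that cover counting error only. All 30 points lie inside the grey band from 1/1.5 to 1.5; Il6ra, Il6st and Ifngr1 lie to the right of 1 in both comparisons with chow, and Csf1r to the left.

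Set side by side, 0 of the 10 receptors were past 1.5-fold in Kupffer-like cells in any of the 3 comparisons. Of all 7512 measured genes, 4.71% passed that limit with an interval that excluded 1 at 3 days over chow (3.37% higher, 1.34% lower). The share was 6.66% at 10 days over chow (4.02% higher, 2.64% lower) and 4.31% between 10 and 3 days (2.34% higher, 1.97% lower). With a limit of 5/4-fold, 3 of 10 receptors were past it at 3 days (Il6ra, Il6st and Ifngr1, all higher), against 22.6% of all genes (14.5% higher, 8.12% lower). At 10 days over chow it was 2 of 10 (Il6ra higher, Ifnar1 lower) against 28.2% (18.1% higher, 10.2% lower). Between the libraries fed ethanol it was 0 of 10 against 20.2% (11.4% higher, 8.77% lower). With 10 receptors, each one is 10% of the set, so these shares are coarse. Their median log2 ratio was −0.03, 0.08 and 0.01, against 0.04, 0.08 and 0.02 over all measured genes. Both comparisons with chow use 1 chow library, so their likeness is not independent.

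**Figure D4:**
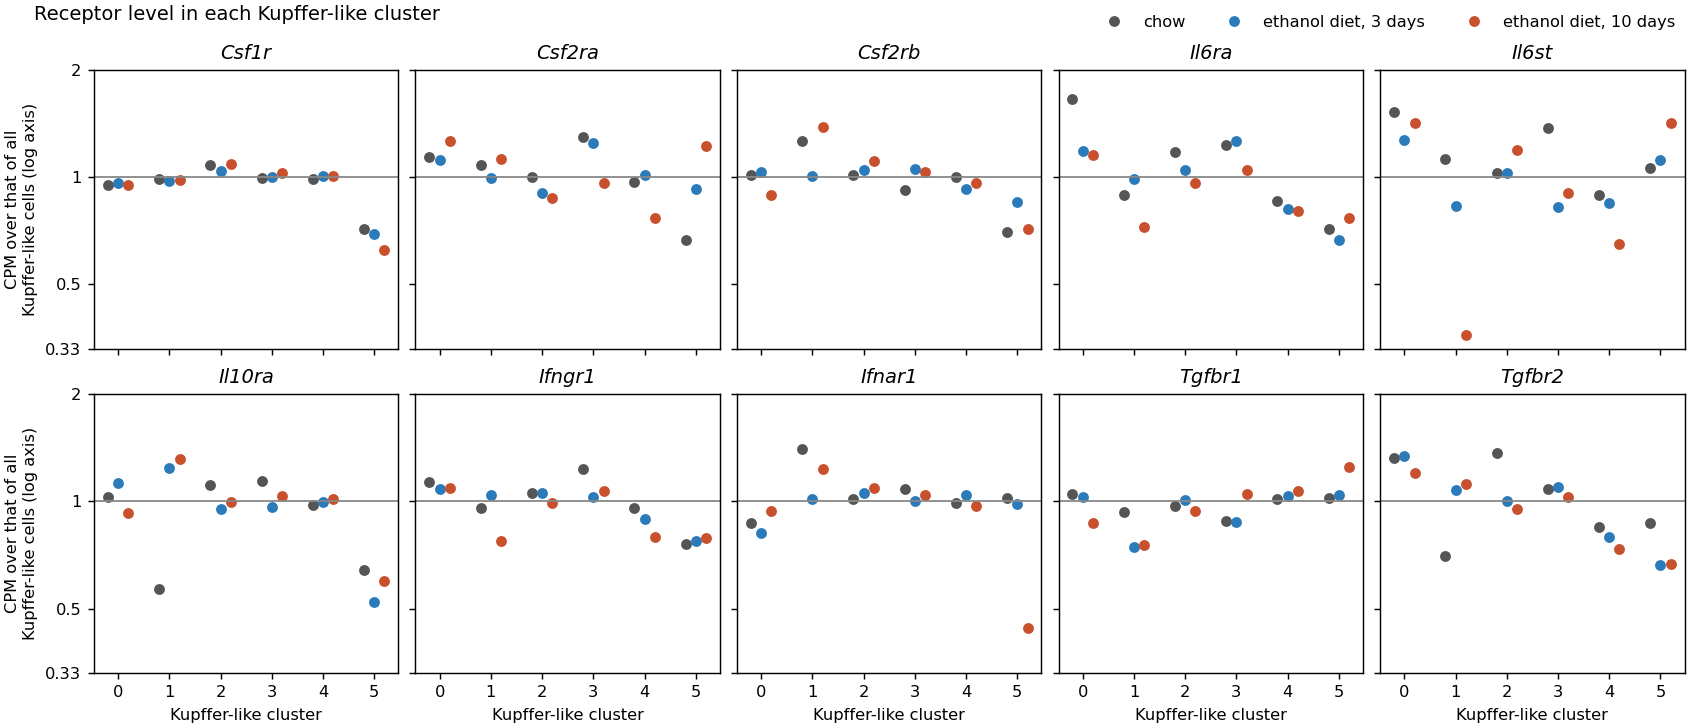
Level of each receptor in each of the 6 Kupffer-like clusters divided by its level in all Kupffer-like cells of the same library (log axis), with 1 point per library. Csf1r is flat over clusters 0 to 4 and lower in the proliferating cluster 5 (0.623 to 0.715); Il10ra and Ifngr1 are also below 1 there in all 3 libraries.

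The Kupffer-like clusters were filled unequally: in chow 47.2% of them were in cluster 4, at 3 days 37.1% were in cluster 2, and at 10 days 41.6% were in cluster 3. A cluster mostly from 1 library may be that library and not a cell state. Cluster 5, the proliferating cells, was below all Kupffer-like cells in every library for Csf1r, Csf2rb (0.702, 0.850 and 0.714), Il6ra (0.713, 0.666 and 0.770), Il10ra (0.640, 0.522 and 0.596), Ifngr1 (0.760, 0.773 and 0.790) and Tgfbr2 (0.868, 0.662 and 0.666). Tgfbr1 stood at 1.02, 1.04 and 1.2 there, from 23 to 25 UMIs per library, and Il6st at 1.06, 1.12 and 1.42, from 11 to 18 UMIs. Cluster 0 was above all Kupffer-like cells in every library for Il6ra, Il6st (1.53, 1.28 and 1.42), Csf2ra (1.14, 1.12 and 1.27), Ifngr1 (1.13, 1.08 and 1.09) and Tgfbr2 (1.33, 1.34 and 1.20), and below them for Csf1r (0.949, 0.963 and 0.948) and Ifnar1 (0.867, 0.812 and 0.939). In this cluster the intervals of Ifnar1 in every library, and of Csf2ra in chow and at 3 days, held the level of all Kupffer-like cells.

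Within a cell, the paired chains were found together about as often as their separate shares would give. After thinning, Il6ra and Il6st were both found in 11, 46 and 19 Kupffer-like cells, or 0.48%, 1.33% and 0.753%, against products of their shares of 0.528%, 1.11% and 0.879%. Ifngr1 and Ifngr2 were both found in 5.93%, 6.87% and 5.87% of cells against 5.15%, 7.24% and 6.63%, and Csf2ra and Csf2rb in 1.35%, 1.42% and 1.19% against 1.46%, 1.42% and 1.52%. For 6 pairs in 3 libraries, the product lay inside the 95% interval of the measured share in 18 of 18 cases. Many of these intervals were wide, such as 0.24% to 0.857% for Il6ra and Il6st in chow. The cases therefore could not exclude a joint share that differs from the product. At 1000 UMIs per cell most receptor transcripts are missed, so a cell without a UMI is not shown to lack the receptor. The median Kupffer-like cell had a UMI for 2 of the 10 receptors in each library, and 2.53%, 2.35% and 2.97% had none.

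**Figure D5:**
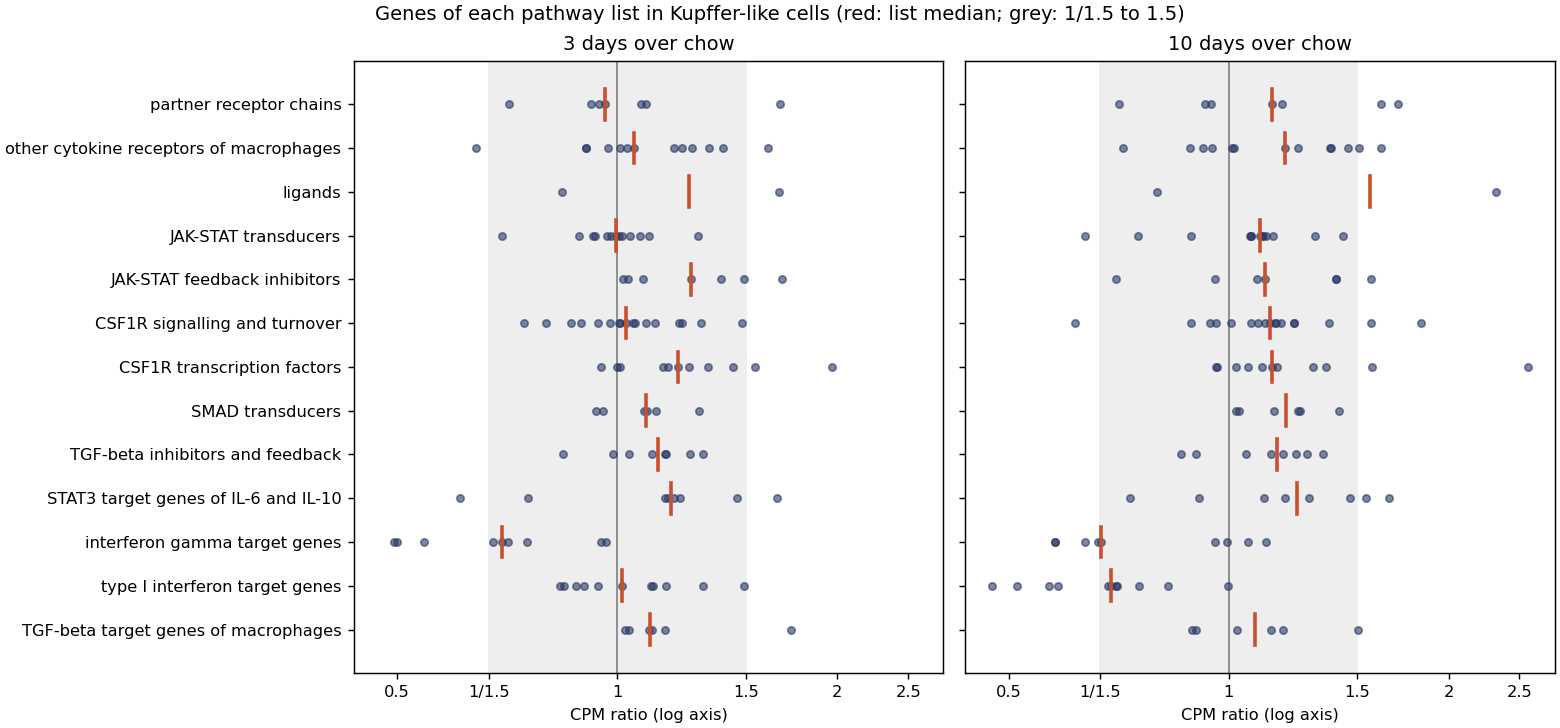
Ratio over chow of each measured gene of 13 pathway lists in Kupffer-like cells (log axis), at 3 days and at 10 days, with red bars for the list medians and a grey band from 1/1.5 to 1.5. Interferon gamma target genes lie mostly left of 1 at both times and type I interferon target genes mostly left of 1 at 10 days; the ligand list holds 2 measured genes, Il6 and Tgfb1.

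Receptors and negative regulators outside the set gave the wider view. Among other cytokine receptors of macrophages, Bmpr2, a receptor for bone morphogenetic proteins, had 58.8, 74.4 and 88.6 CPM (1.51 at 10 days over chow). Il2rg, the common gamma chain, had 103, 66.0 and 73.9 CPM (0.641 and 0.718) and was the lowest of its list at both times. Of 13 measured JAK-STAT transducers, 0 were past 1.5-fold at 3 days over chow (4.71% of all measured genes). At 10 days 0 were higher and 1 lower (4.02% and 2.64%). Stat5b was the highest at both times (1.29 and 1.43), and the lowest ratios of the list were 0.694 and 0.637. Of 7 measured feedback inhibitors, Socs7 was higher at 3 days (17.1, 28.7 and 23.9 CPM, 1.68) and Socs5 at 10 days (16.6, 18.0 and 26.0 CPM, 1.57). The lowest of that list were Socs4 at 3 days (1.02) and Usp18 at 10 days (0.701).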

How the data were processed

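Single-cell RNA was counted in sorted liver macrophages of 3 mice, 1 library per group. The authors deposited raw UMI counts for every gene and every kit barcode, per the file headers, with no cells selected. Per the submitters' processing notes, Cell Ranger 2.2.0 was used, with GRCm38 and mm10 as the builds. How strand was treated in counting, the release of the annotation and the aligner settings are not given in the sources used here.

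Barcodes with at least 1000 UMIs, at least 300 genes and at most 10% mitochondrial UMIs were kept (2767, 4061 and 3014). Scrublet's automatic threshold marked 0 cells in the 3 libraries, so the 4% with the highest scores were removed (111, 162 and 121 cells). Cells were clustered with 2000 variable genes (the 10 receptors left out), 30 principal components, 15 neighbours and Leiden resolution 0.6, without batch correction (scanpy 1.11.5, igraph 0.11.9, scikit-learn 1.9.0). Of 15 clusters, 6 were Kupffer-like. A cluster was Kupffer-like when its Kupffer markers had a median of at least 0.5 times their level in all kept cells. It also had to hold fewer than 3 markers of any other type among its 25 leading genes. Clusters at that level with 3 or more such markers stayed unnamed (110, 175 and 71 cells). Below that level, a cluster was named when at least 3 markers of a type were among its leading genes. The naming thresholds were set after a first clustering was seen.

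Counts were summed per library and class and divided by the class total (CPM). Ratios have exact conditional binomial 95% intervals, levels exact Poisson and shares exact Clopper-Pearson intervals (scipy 1.17.1), which cover counting error only. Each group has 1 mouse, so groups were not tested and no p-value is given. Mouse, library and diet cannot be told apart. Thinning drew 1000 UMIs from each cell. A gene counted as measured at a mean of at least 10 CPM in Kupffer-like cells. The script was tested on simulated data.

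All 10 receptors were named, with the partners Il10rb, Ifngr2, Ifnar2, Csf2rb2 and Tgfbr3, the highest and lowest measured gene of each list in each comparison with chow, and for each receptor the 2 genes with the highest Pearson correlation of log2(CPM + 1) over 12 sums. Other genes were named after their values were seen. Some genes that this rule selects are not reported here. The receptors and the lists were chosen with earlier results of these data known. Gene positions came from GENCODE vM21 (GRCm38), where 28339 of 28692 gene IDs were found. The alternatives included TMM scaling (edgeR 4.0.16, R 4.3.3), other cell filters and subtraction of free RNA.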

Additional observations from a re-analysis of the deposited data

Results flagged for a closer look

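Csf1r differed in direction between classes at 10 days over chow. The ratio was 1.56 in dendritic-like cells (1.37 to 1.78) and 0.927 in Kupffer-like cells, and the difference between the classes was not tested. Summed Kupffer markers in the dendritic-like cells stood at 32.7% of their Kupffer-like level in chow and 47.6% at 10 days, and their part was not tested.

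At 10 days over 3 days, Csf1r had a ratio of 0.60 in endothelial-like cells (0.434 to 0.819) and 1.03 in Kupffer-like cells, a difference that was not tested. The summed Kupffer markers in endothelial-like cells were 27.4% of the Kupffer-like level at 3 days and 21.9% at 10 days.

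Ifngr1 had a ratio of 0.759 in lymphoid-like cells (0.60 to 0.956) at 10 days over chow and 1.21 in Kupffer-like cells. This difference was not tested either. Summed Kupffer markers in lymphoid-like cells were 13.5% of the Kupffer-like level in chow and 6.88% at 10 days. In the T and NK-like cells alone, where they were 7.32% and 6.79%, Ifngr1 had 390 and 286 CPM.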

How the results depend on the processing

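No paired analysis was possible because each group has 1 sample, and for the same reason no replicate could be left out. The 30 ratios of the receptors in Kupffer-like cells were recomputed under 10 alternatives each. The 15 ratios whose interval excluded 1 stayed on the same side of 1 in all 10, and 35 of the 300 values moved outside the first interval. The count of receptors past 1.5-fold at 3 days over chow was 0, and 1 (Il6st, 1.58) with cells thinned to 1000 UMIs. With a limit of 5/4-fold it was 3 at 3 days and 2 at 10 days over chow. Of the genes of all lists, 13, 22 and 11 were past 1.5-fold in the 3 comparisons (3 days over chow, 10 days over chow, 10 days over 3 days). With a minimum of 50 CPM these were 6, 13 and 6, from fewer genes measured, and with a minimum of 1 UMI in every library the last was 17. Of all 7512 genes measured at 10 CPM, 4.71%, 6.66% and 4.31% were past 1.5-fold in the same comparisons. The list counts are given without the number of list genes measured, so they are not read against these shares. The count of 6 receptors higher than in lymphoid-like cells ran from 4 (limit of 3-fold) to 7 (free RNA subtracted, or T and NK-like cells alone). TMM scaling shifted the median of all genes by −0.04, −0.06 and −0.02 (log2). Low counts limit Ifnar1 and Il6st within clusters and all receptors in the small classes.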

Other observations

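Across the 12 sums of library and class, the receptor pairs with the highest correlation of log2(CPM + 1) were Il6ra with Csf1r (r = 0.943) and Csf2rb with Csf1r (0.937). The lowest were Ifngr1 with Il6st (r = −0.704) and Ifnar1 with Il6st (−0.699). The sums share libraries and depth, so these are descriptions with no test.

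Free RNA, from barcodes with 1 to 100 UMIs, held receptor RNA in every library. Csf1r had 2169, 1882 and 1601 CPM there in chow, at 3 days and at 10 days, Ifngr1 483, 617 and 445 CPM, Il6ra 134, 172 and 177 CPM, and Il6st 40.2, 50.8 and 46.7 CPM. The estimated share of free RNA was 18.3%, 18.9% and 19.0% in Kupffer-like cells and 15.7%, 12.6% and 9.41% in lymphoid-like cells. It is the RNA of T and NK markers in Kupffer-like cells, and of Kupffer markers in lymphoid-like cells, over its free-RNA level. All such RNA was taken as free, which was not tested. The lymphoid-like estimate includes the B and plasma-like cells, whose Kupffer marker levels differed between libraries.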
